A study of Mus musculus with 14 samples.

Results

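The amyloid precursor protein App, its homologues Aplp1 and Aplp2, the secretase genes Adam10, Bace1, Psen2 and Ncstn, the adaptor gene Apbb1 and the tau gene Mapt were examined in neuronal nuclei of the medial entorhinal cortex of aged and young mice. The genes were taken by symbol, and all 9 had a row among the 27781 gene rows of the deposited table and passed the filter on low values. The study measured gene expression with SmartSeq RNA libraries, 7 from aged and 7 from young mice, to set beside electrophysiological recordings of this area, which holds neurons tuned to position. The sources used here give no strain, age in weeks, sex or treatment, nor do they state whether a library stands for 1 animal or a pool, so the p-values measure only the spread between libraries. Libraries are named below by age group and title number.

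App is a membrane protein that is cut by secretases. Cleavage by alpha-secretase, mainly ADAM10 in neurons, releases a soluble ectodomain, whereas cleavage by the beta-secretase BACE1 followed by gamma-secretase, a complex with a presenilin as its catalytic subunit and nicastrin as a scaffold, releases amyloid-beta. APLP1 and APLP2 are cut by the same enzymes but hold no amyloid-beta sequence. Tau is a microtubule-binding protein of axons, and the entorhinal cortex is among the first areas in which tau aggregates in human Alzheimer's disease.

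Each value is the authors' normalized value of a gene in a library, scaled so that the typical gene is alike across libraries, and the read depth behind it is unknown. Between 21152 and 25615 genes were above 0 per library. The libraries fell into 2 sets that cut across age. Xist lay between 7378 and 25459 in 7 libraries, called Xist-positive here (5 aged and 2 young), and between 0 and 5.13 in the other 7, called Xist-negative (2 aged and 5 young). The Xist-positive libraries were aged 3, 4, 5, 6 and 7 and young 2 and 3. The summed value of 4 Y-linked genes ran the other way, at 1.14 to 11.1 in Xist-positive and 4367 to 9425 in Xist-negative libraries. The Xist-positive libraries also had fewer genes above 0, 21152 to 22812 against 25263 to 25615 in Xist-negative libraries, and with age as a further term 52.0% of all genes tested differed between the sets. The labels give no cause for this split, and age differences are given over all libraries, after set adjustment (with the set as a second term of the fit) and within each set. Age differences are aged minus young and set differences Xist-positive minus Xist-negative, on a scale of log2(value + 1). Set differences come from the fit that also holds age, so they are not the gaps between the observed set levels. Means are given ± SD of the 7 libraries of a group unless another n is stated.

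The neuronal markers Rbfox3, Snap25, Syt1, Slc17a7, Gad1 and Gad2 were present in every library, with summed values of 94845 to 172955 in aged and 100308 to 147337 in young libraries. Markers of other cell types were not absent, and none of the 28 was at 0 in any library. The 6 astrocyte markers summed to 4520 to 14005 in aged and 4943 to 8025 in young libraries, and the 6 oligodendrocyte markers to 5200 to 18463 in aged and 3487 to 9778 in young libraries. The 5 oligodendrocyte precursor markers summed to 576 to 2669 in aged and 620 to 3224 in young libraries, the 6 microglia markers to 745 to 4322 and 698 to 3311, and the 5 endothelial and mural markers to 308 to 2004 and 681 to 2413. Neurons and glia both make App, and the part of glial RNA in the differences below was not tested. In such bulk samples a smaller number of cells of a type and less RNA per cell cannot be told apart.

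Within the amyloid precursor family, Aplp1 and App rose in aged nuclei in the authors' deposited table and Aplp2 did not pass there. None of the 9 genes passed an adjusted p of 0.05 for age in limma over all 14 libraries with equal weight for each, the setting of every limma value below unless another is named. The promoters of these 3 family members are shown to compare the start regions of the 2 genes that passed in that table with that of their homologue. Each line runs from 250 bases before to 50 bases after the annotated start of the gene on its own strand, from RefSeq on GRCm38.p6, at chr7:30445533-30445832 for Aplp1, chr16:85173658-85173957 for App and chr9:31211799-31212098 for Aplp2, all on the minus strand. Capitals mark the GC box GGGCGG and the CCAAT box on either strand.
Aplp1: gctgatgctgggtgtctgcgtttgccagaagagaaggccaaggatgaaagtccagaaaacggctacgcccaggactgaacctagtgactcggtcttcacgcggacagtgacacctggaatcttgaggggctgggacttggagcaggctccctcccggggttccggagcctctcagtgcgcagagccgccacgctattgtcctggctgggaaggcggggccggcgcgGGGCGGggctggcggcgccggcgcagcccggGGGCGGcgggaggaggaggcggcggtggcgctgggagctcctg
App: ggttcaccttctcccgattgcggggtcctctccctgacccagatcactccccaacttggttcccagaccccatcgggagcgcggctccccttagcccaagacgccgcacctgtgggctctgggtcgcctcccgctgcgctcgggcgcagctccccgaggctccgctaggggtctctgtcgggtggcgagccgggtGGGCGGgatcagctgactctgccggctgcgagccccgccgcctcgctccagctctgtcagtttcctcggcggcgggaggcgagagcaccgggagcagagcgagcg
Aplp2: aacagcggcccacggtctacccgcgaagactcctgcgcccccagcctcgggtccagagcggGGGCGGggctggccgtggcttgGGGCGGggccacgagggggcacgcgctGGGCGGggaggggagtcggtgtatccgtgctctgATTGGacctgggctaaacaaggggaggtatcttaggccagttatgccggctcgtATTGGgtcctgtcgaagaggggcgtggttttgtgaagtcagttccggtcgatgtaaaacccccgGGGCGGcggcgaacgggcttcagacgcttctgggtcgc
All 3 windows are rich in G and C, at 68.7% in Aplp1, 71.0% in App and 67.0% in Aplp2, where the median of 32851 promoter windows is 52.7%. They hold 26, 30 and 29 CG dinucleotides in that order, where the median window holds 7. The GC box occurs 2 times in Aplp1, 1 time in App and 4 times in Aplp2, and 35.7% of all windows hold at least 1. The CCAAT box occurs 2 times in Aplp2 and not in the windows of Aplp1 and App, and 37.4% of all windows hold it. The TATA box TATAAA (13.6% of all windows), the E-box CACGTG (7.15%) and the AP-1 site TGACTCA (5.20%), searched on both strands, are in none of these 3 windows. Such matches describe the sequence only.

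Aplp1, a neuronal member of the family found at synapses (chromosome 7, 30434982 to 30445535, minus strand, mm10), had normalized values from 18168 to 29340 in aged libraries, with a median of 19788, and from 8353 to 16979 in young libraries, with a median of 10647. No young library reached the lowest aged one. This held within both library sets, in which Aplp1 measured 18551 to 29340 in aged and 12000 and 13888 in young Xist-positive libraries, and 18168 and 20582 in aged and 8353 to 16979 in young Xist-negative libraries. Among all genes tested, 0.138% had every aged library above every young one, and 0.619% did so within both sets. The mean was 20894 ± 3822 in aged and 11771 ± 2867 in young libraries. The log2 difference was 0.84 (SE 0.19 and adjusted p = 0.126 by limma) over all libraries and 0.77 (SE 0.19 and adjusted p = 0.158 by limma) after set adjustment. Taken alone, the Xist-positive libraries gave 0.71 and the Xist-negative ones 0.82. In the authors' deposited table Aplp1 rose, by a log2 value of 0.75 (SE 0.19, adjusted p = 0.0110). Leaving out the aged library 12, the Aplp1 difference of 0.85 passed in limma with age alone (adjusted p = 0.0411), as did 2381 genes in all.

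App (chromosome 16, 84949685 to 85173766, minus strand) had values from 18036 to 24237 in aged libraries, with a median of 21550, and from 11765 to 21730 in young libraries, with a median of 13896. The groups overlapped through the young library 18, at 21730, which was also the highest young library for Aplp1 and Aplp2. The other 6 young libraries, at 16501 or less, lay below all aged ones. In the Xist-positive set the 5 aged libraries measured 18036 to 23623 and the young ones 11765 and 15427. In the Xist-negative set the 2 aged libraries measured 19040 and 24237 and the 5 young ones 12023 to 21730. The mean was 21419 ± 2258 in aged and 14805 ± 3543 in young libraries. App had a log2 difference of 0.56 (SE 0.18 and adjusted p = 0.182 by limma) over all libraries and of 0.59 (SE 0.18 and adjusted p = 0.229 by limma) after set adjustment. The values within the sets were 0.66 in Xist-positive and 0.53 in Xist-negative libraries. The authors' deposited table gives a rise of 0.58 on the log2 scale (SE 0.17, adjusted p = 0.0469). That p lies close to the threshold.

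Aplp2, the broadly expressed homologue (chromosome 9, 31149557 to 31211815, minus strand), had values from 3443 to 8454 in aged libraries, with a median of 5080, and from 2370 to 7537 in young libraries, with a median of 4782. The groups overlapped over most of their range. Aplp2 differed between the library sets, with 4340 ± 1999 in Xist-positive and 5851 ± 1449 in Xist-negative libraries. Its age-adjusted set difference was -0.74 on the log2 scale (SE 0.23 and adjusted p = 0.0123 by limma). Its age difference was 0.25 (SE 0.27 and adjusted p = 0.553 by limma) over all libraries and 0.57 (SE 0.23 and adjusted p = 0.321 by limma) after set adjustment. In the authors' deposited table it was 0.59 (SE 0.26, adjusted p = 0.227). In the Xist-positive set the aged library 3, at 8454, stood well above the other 4 aged libraries, which measured 3443 to 5080. The young libraries of that set measured 2370 and 3289.

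**Figure D1:**
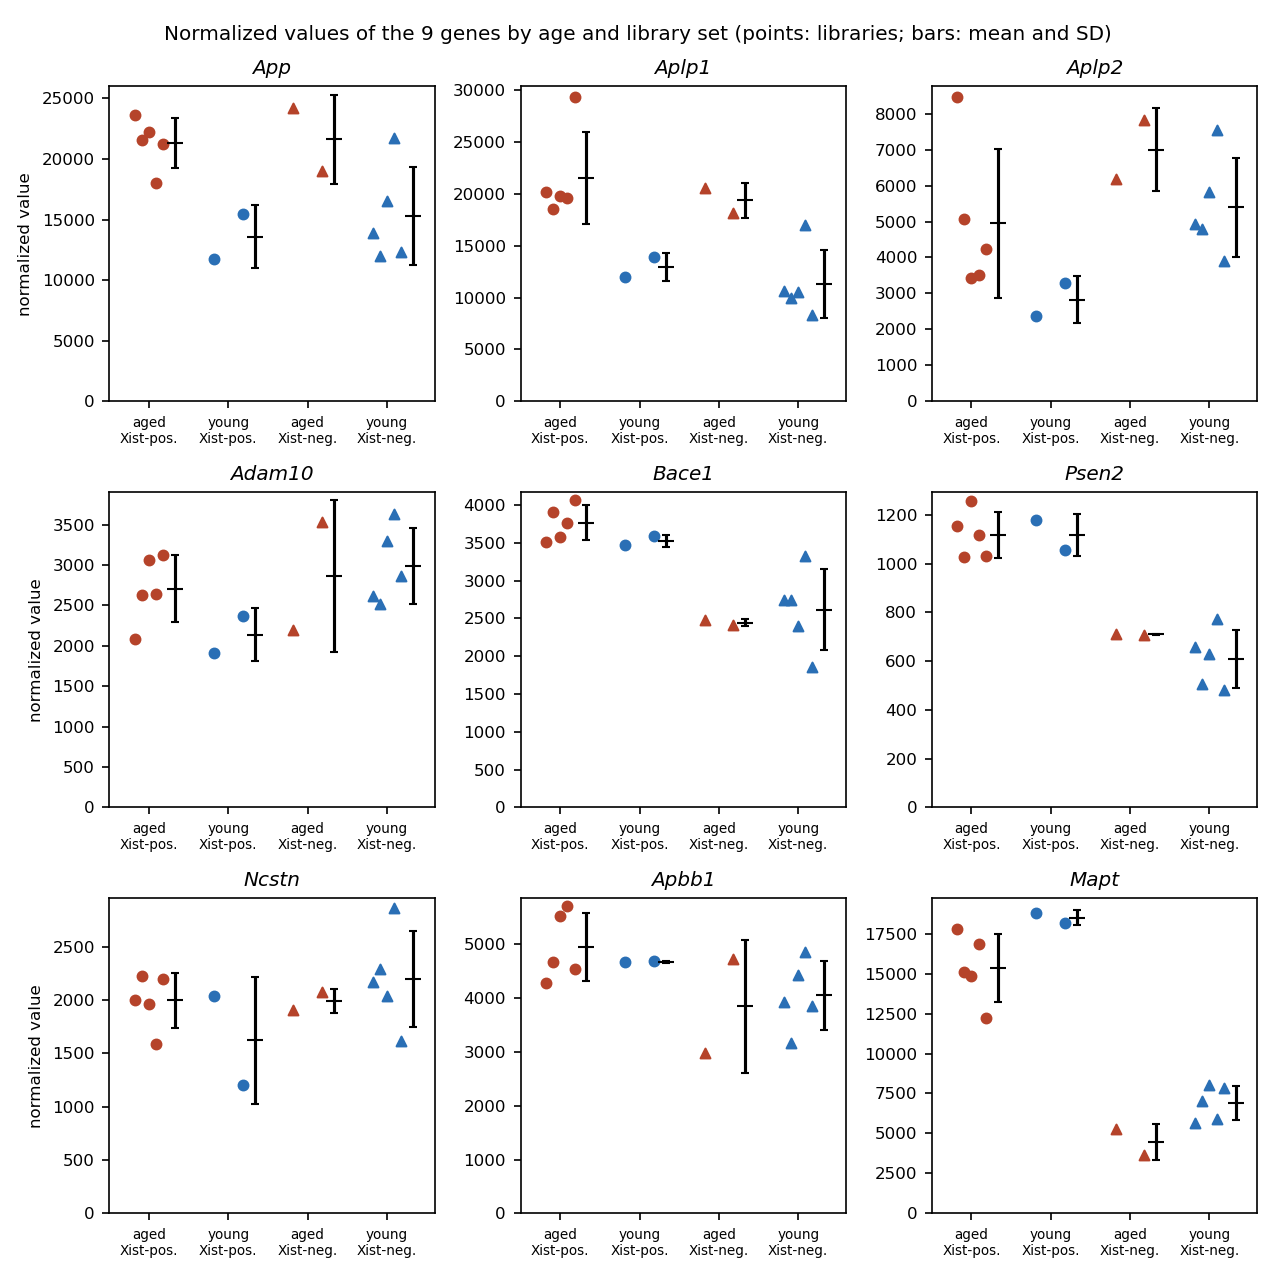
Normalized value (vertical axes, from 0) of the 9 genes in each library, by age and library set, with circles for Xist-positive and triangles for Xist-negative libraries and with bars for the mean and SD of each subgroup. Aged libraries lie above young ones in both sets for Aplp1, whereas for Mapt the aged libraries lie below the young ones within each set and the Xist-positive set is higher.

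None of the 4 secretase genes passed for age in the authors' deposited table or in limma with equal library weights. Bace1 (0.45) and Psen2 (0.75) passed with array weights and age alone, but so did most of all genes tested, as counted below. For the library set 2 of the 4 passed, Bace1 and Psen2, where 52.0% of all genes did. With equal totals Bace1 no longer passed, and Psen2, Ncstn (-0.55) and Adam10 (-0.58) did. That scaling lowered the set differences, with a median over the 9 genes of -0.13 against 0.18 as deposited. The 52.0% is for values as deposited, and the share of all genes with equal totals is not given here. The alpha-secretase gene Adam10 (chromosome 9, 70678997 to 70780229, plus strand) had values from 2081 to 3527 in aged libraries, with a median of 2641, and from 1908 to 3635 in young libraries, with a median of 2614. The groups covered almost the same range. Its log2 difference was 0.01 (SE 0.17 and adjusted p = 0.977 by limma) over all libraries and 0.12 (SE 0.17 and adjusted p = 0.777 by limma) after set adjustment. Within the sets Adam10 had a difference of 0.33 in Xist-positive and -0.09 in Xist-negative libraries.

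The beta-secretase gene Bace1 (chromosome 9, 45838580 to 45864399, plus strand) had values from 2416 to 4064 in aged libraries, with a median of 3577, and from 1863 to 3586 in young libraries, with a median of 2749. Bace1 was higher in the Xist-positive libraries, at 3467 to 4064, than in the Xist-negative ones, at 1863 to 3327. The set difference was 0.54 (SE 0.14 and adjusted p = 0.00500 by limma), and the call was lost when libraries were scaled to equal totals (0.22, limma adjusted p = 0.256) or equal upper quartiles (0.39, limma adjusted p = 0.0598). The age difference was 0.24 (SE 0.18 and adjusted p = 0.383 by limma) over all libraries and 0.01 (SE 0.14 and adjusted p = 0.982 by limma) after set adjustment. The authors' deposited table gives -0.00096 on the log2 scale (SE 0.14, adjusted p = 0.999).

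Psen2, a presenilin of the gamma-secretase complex (chromosome 1, 180227004 to 180263438, minus strand), had values from 707 to 1255 in aged libraries, with a median of 1033, and from 482 to 1177 in young libraries, with a median of 658. These levels were higher in the Xist-positive set. Psen2 lay between 1026 and 1255 in Xist-positive and between 482 and 774 in Xist-negative libraries. The age-adjusted set difference was 0.77 on the log2 scale (SE 0.16 and adjusted p = 0.000636 by limma). The age difference of 0.45 (SE 0.23 and adjusted p = 0.223 by limma) over all libraries was 0.12 (SE 0.16 and adjusted p = 0.760 by limma) after set adjustment, and it was -0.00115 in Xist-positive and 0.24 in Xist-negative libraries. Psen2 averaged 1117 ± 94.6 in the 5 aged and 1116 ± 86.4 in the 2 young Xist-positive libraries (SD).

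Ncstn, which encodes nicastrin (chromosome 1, 172066013 to 172082795, minus strand), had values from 1586 to 2224 in aged libraries, with a median of 2003, and from 1203 to 2863 in young libraries, with a median of 2041. The aged range lay inside the young one. The log2 difference was 0.01 (SE 0.17 and adjusted p = 0.977 by limma) over all libraries and 0.11 (SE 0.18 and adjusted p = 0.813 by limma) after set adjustment. The signs were not the same within the sets, at 0.34 in Xist-positive and -0.12 in Xist-negative libraries, and the test of that difference between sets did not pass (0.46, SE 0.35 and adjusted p = 0.9997 by limma). Exons of Ncstn overlap those of Copa on the other strand, exons of Bace1 those of Rnf214, Gm16536 and Gm49338, and exons of App those of Gm49227. The sources used here do not say whether reads were counted by strand, so reads of these pairs may not be told apart.

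Apbb1, the adaptor FE65 that binds the intracellular tail of APP (chromosome 7, 105558483 to 105581653, minus strand), had values from 2976 to 5706 in aged libraries, with a median of 4676, and from 3169 to 4864 in young libraries, with a median of 4436. The young range lay inside the aged one. Apbb1 had a log2 difference of 0.12 (SE 0.16 and adjusted p = 0.650 by limma) over all libraries and of -0.01 (SE 0.16 and adjusted p = 0.980 by limma) after set adjustment, and the authors' deposited table gives 0.0031 (SE 0.16, adjusted p = 0.996).

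The tau gene Mapt (chromosome 11, 104231390 to 104332090, plus strand) had values from 3657 to 17782 in aged libraries, with a median of 14851, and from 5675 to 18818 in young libraries, with a median of 7816. The levels were higher in the Xist-positive set. Mapt measured 12216 to 18818 in Xist-positive and 3657 to 8002 in Xist-negative libraries. The age-adjusted set difference was 1.62 on the log2 scale (SE 0.16 and adjusted p = 1.2e-06 by limma), or 3.07-fold. That was the widest set difference of the 9 genes. It passed under both other scalings, at 1.30 with equal totals and 1.47 with equal upper quartiles.

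Within each set Mapt lay lower in aged libraries. In the Xist-positive set it measured 17782, 15074, 14851, 16883 and 12216 in the aged libraries 3 to 7, against 18818 and 18186 in the young libraries 2 and 3. In the Xist-negative set it measured 5274 and 3657 in the aged libraries 12 and 13, against 5675, 7016, 8002, 5887 and 7816 in the young libraries 11 and 16 to 19. Within its own set, each aged library had less Mapt than any young library. Of all genes tested, 1.2% had this pattern, and 0.138% had it together with a positive difference over all libraries, as Mapt did.

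The log2 difference of Mapt with age alone was 0.24 (SE 0.40 and adjusted p = 0.718 by limma), and after set adjustment it was -0.46 (SE 0.16 and adjusted p = 0.278 by limma). Of the 7 aged libraries 5, and of the 7 young libraries 2, were in the set with the higher level. The value was -0.28 in Xist-positive and -0.63 in Xist-negative libraries, and the test of the difference between the sets did not pass (0.35, SE 0.32 and adjusted p = 0.9997 by limma). The authors' deposited table gives -0.45 (SE 0.16, adjusted p = 0.114), which did not pass. Over all 14 cases of leaving out 1 library, the set-adjusted difference ran from -0.51 to -0.31.

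**Figure D2:**
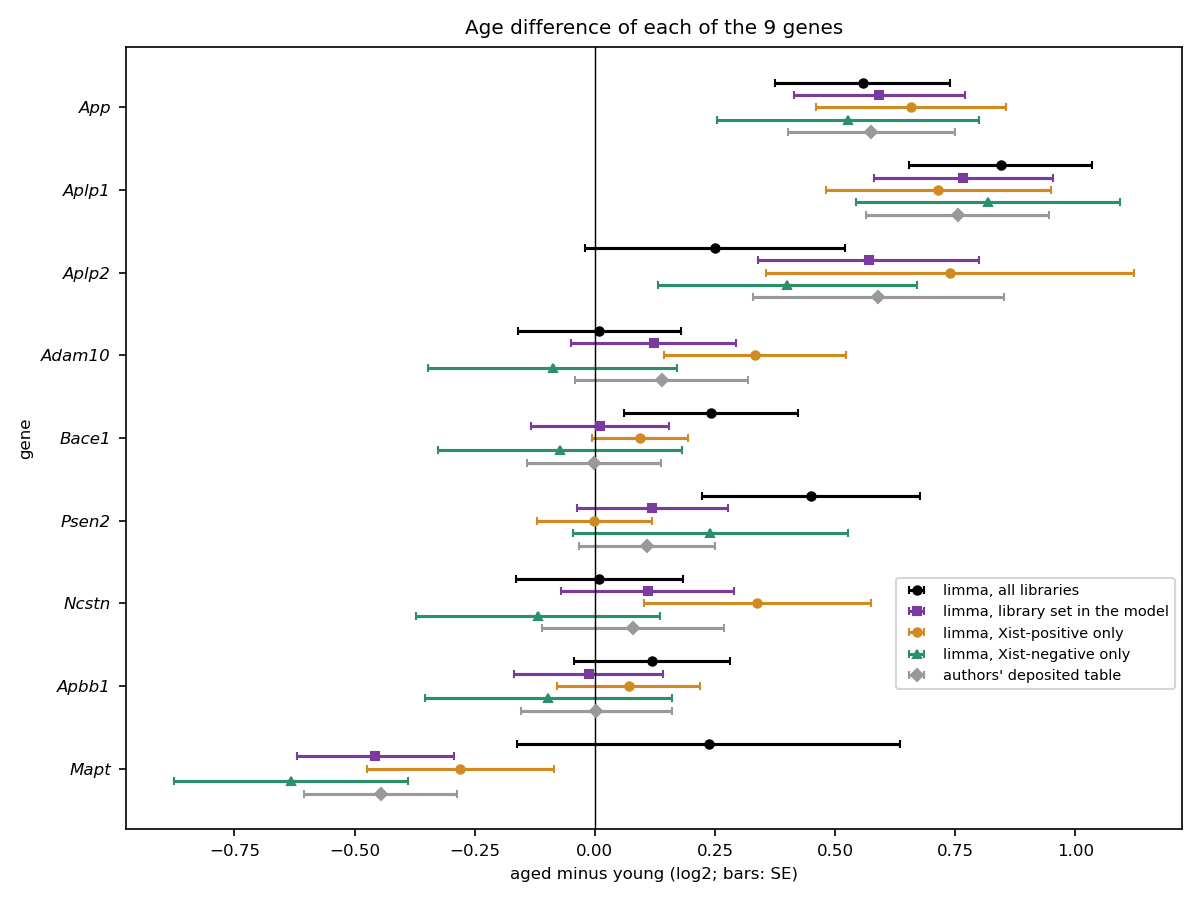
Aged minus young log2 difference (horizontal axis, bars show the SE) of each of the 9 genes in limma over all libraries, set-adjusted and within each set, and in the authors' deposited table. Aplp1 and App are positive in all 5 estimates, and Mapt is positive over all libraries alone and negative in the other 4.

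Counted together, 9 of the 9 genes had a positive age difference over all libraries, with a median log2 difference of 0.24, against 37.2% of the 24554 genes tested, whose median was -0.25. The genes tested were not matched to the 9 in level, and such counts were not particular to the 9. In the same fit 6 of 6 neuronal markers (median 0.39) and 14 of 16 tau phosphatase and chaperone genes were positive. Of other secretase substrates 8 of 17 were positive, and of endothelial and mural markers 0 of 5. With equal upper quartiles 7 of the 9 were positive, and Ncstn and Adam10 were negative (-0.04 each). After set adjustment 7 were positive and 2 negative (median 0.12), against 37.5% positive of all genes (median -0.16). In limma none of the 9 passed an adjusted p of 0.05 over all libraries, where 1 gene of all did (0.00407%), or after set adjustment, where 2 did (0.00815%). With array weights, which weight libraries by their own spread, and age alone, 5 of the 9 passed (App, Aplp1, Bace1, Psen2 and Mapt). So did 13048 genes in all. The lowest weights, 0.27 to 0.42, fell on the young Xist-positive and aged Xist-negative libraries. That weighted fit thus compares mainly aged Xist-positive with young Xist-negative libraries, so age and library set cannot be told apart in it. At an unadjusted p under 0.05, 2 of the 9 were higher in aged libraries with age alone (App and Aplp1), against 6.5% of all genes, and 0 were lower, against 17.6%. After set adjustment 3 of the 9 were higher (App, Aplp1 and Aplp2), against 4.03% of all genes, and 1 was lower (Mapt), against 9.03%. Of the 9 genes, 2 were higher in the authors' deposited table at an adjusted p under 0.05, against 0.838% of its genes, and 0 were lower, against 1.57%. For the library set, 3 of the 9 were higher in Xist-positive libraries (Mapt, Psen2 and Bace1), against 15.5% of all genes, and 1 was lower (Aplp2), against 36.5%. Within the Xist-positive set 7 of the 9 differences were positive, against 39.8% of all genes, and 2 were higher at an unadjusted p under 0.05 (App and Aplp1), against 2.91%, and 0 lower, against 6.73%. Within the Xist-negative set 4 were positive, against 37.8%, and 1 was higher (Aplp1), against 2.13%, and 1 lower (Mapt), against 3.34%. None of the 9 passed an adjusted p of 0.05 in either set, where 0.244% and 0.0204% of all genes did. No interaction of age and set passed for any of the 9 (0.0% of all genes, and 3.62% at an unadjusted p under 0.05, none of the 9 among them).

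The other secretase genes, 10 in the list, had 6 positive and 4 negative differences over all libraries and 4 and 6 after set adjustment (6 and 4 with equal totals), and none passed. Lgmn, which encodes the lysosomal protease legumain, averaged 2556 ± 984 in aged and 1645 ± 547 in young libraries, which differed by 0.64 on the log2 scale (SE 0.25 and adjusted p = 0.186 by limma, 0.72 after set adjustment). Psenen, a small subunit of gamma-secretase, averaged 373 ± 221 in aged and 212 ± 69.4 in young libraries (0.71, SE 0.35 and adjusted p = 0.216 by limma, 0.42 after set adjustment).

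Among 27 genes tested for APP adaptors and trafficking, 21 were positive over all libraries and 11 after set adjustment (17 with equal totals), and none passed in either fit. The smallest p-values belonged to the paralogues Itm2c and Itm2b, BRICHOS-domain membrane proteins that bind APP. Itm2c averaged 9940 ± 1688 in aged and 6557 ± 1573 in young libraries, which differed by 0.62 on the log2 scale (SE 0.18 and adjusted p = 0.182 by limma, 0.53 after set adjustment). Itm2b averaged 9310 ± 2381 in aged and 5954 ± 2013 in young libraries (0.67, SE 0.24 and adjusted p = 0.182 by limma, 0.56 after set adjustment). The sorting receptor gene Sorl1, chosen after its values were seen, had differences of -0.32 and -0.55.

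Genes of amyloid-beta clearance, 10 in the list, gave the highest set-adjusted median of the 7 pathway lists, at 0.42, and a median of 0.28 over all libraries. None passed in limma with the values as deposited, and with equal totals Apoe did (1.37, limma adjusted p = 0.0489). Of the 10 genes, 1 passed as higher in the authors' deposited table, against 0.838% of its genes. That gene was also Apoe, the lipid carrier made mainly by astrocytes, for which the authors' deposited table gives 1.19 on the log2 scale (SE 0.30, adjusted p = 0.00881). By limma Apoe differed by 1.38 (SE 0.26, adjusted p = 0.0795) over all libraries and by 1.24 after set adjustment. Cst3, which encodes the protease inhibitor cystatin C, averaged 4728 ± 1518 in aged and 2307 ± 807 in young libraries, which differed by 1.03 on the log2 scale (SE 0.25 and adjusted p = 0.146 by limma, 0.91 after set adjustment). Both are abundant in glia, and 6 of 6 astrocyte markers also had positive set-adjusted differences (median 0.72), as did 6 of 6 oligodendrocyte markers (median 1.003). So did 5 of 6 microglia (0.59), 5 of 6 neuronal (0.24), 3 of 5 oligodendrocyte precursor (0.82) and 1 of 5 endothelial and mural markers (-0.28). None of these markers passed in limma. In the authors' deposited table, however, 1 of the 6 astrocyte markers passed as higher. So did 1 of the 4 oligodendrocyte precursor markers with an adjusted p there. No neuronal, oligodendrocyte, microglia or endothelial and mural marker passed there. Whether glial RNA carries the Apoe and Cst3 differences was not tested.

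The 17 other substrates of secretases had 8 positive differences over all libraries and 5 after set adjustment, with medians of -0.0056 and -0.12, and none passed. With equal totals the set-adjusted median was 0.0081. Scn2b, a sodium channel beta subunit cut by BACE1, averaged 2139 ± 1028 in aged and 884 ± 573 in young libraries, which differed by 1.27 on the log2 scale (SE 0.39 and adjusted p = 0.182 by limma), and its difference was 0.64 after set adjustment. The adhesion molecule gene L1cam averaged 2441 ± 492 in aged and 3557 ± 1040 in young libraries (-0.51, SE 0.20 and adjusted p = 0.183 by limma, -0.33 after set adjustment).

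Genes of tau kinases had values that moved with the library set as Mapt did. All 18 in the list had higher fitted levels in Xist-positive libraries, and 16 of them passed (median log2 difference 1.11), against 40.9% with a positive and 15.5% with a called positive set difference among all genes. Their age differences were positive in 10 of 18 over all libraries (median 0.16), and after set adjustment 15 of 18 were negative (median -0.29), against a median of -0.16 over all genes. With equal totals 16 of 18 were positive for the set, 13 of 18 passed, and 12 of 18 were negative for age after set adjustment (median -0.15). The share of all genes that passed for the set with equal totals is not given here. None of the 18 tau kinase genes passed for age in limma. Nor did any of the 17 with an adjusted p in the authors' deposited table, where Cdk5r2 has none. Cdk5r2, an activator of the kinase Cdk5, had a difference of 3.07 (SE 1.05 and adjusted p = 0.182 by limma) that was 1.46 after set adjustment, at low values of 30.6 ± 23.4 in aged and 4.49 ± 8.33 in young libraries. The kinase gene Fyn averaged 6782 ± 1957 in aged and 3930 ± 2286 in young libraries (0.93, SE 0.33 and adjusted p = 0.182 by limma, 0.46 after set adjustment). Ttbk1, a tau-tubulin kinase gene chosen after its values were seen, had a difference of -0.18 over all libraries. After set adjustment it was -0.66 (limma adjusted p = 0.245). Like Mapt, Ttbk1 was lower in each aged library than in any young library of its set, as were 1.2% of all genes tested.

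**Figure D3:**
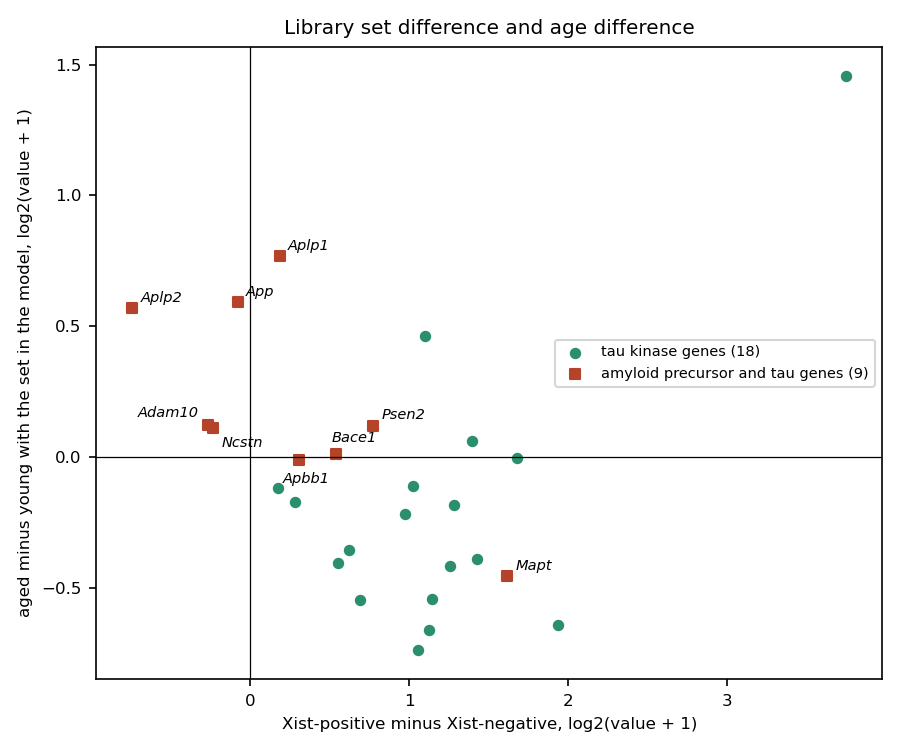
Library set difference (horizontal axis) and set-adjusted age difference (vertical axis), both from limma on the log2(value + 1) scale, for the 9 genes (squares) and the 18 tau kinase genes (circles). All tau kinase genes lie right of 0, as Mapt does at 1.62, and 15 of the 18 lie below 0, as Mapt does at -0.46.

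The 16 genes of tau phosphatases and chaperones had 14 positive differences over all libraries (median 0.27) and 13 after set adjustment (median 0.18), and none passed. The catalytic subunit gene Ppp2ca of protein phosphatase PP2A had differences of 0.93 (SE 0.32 and adjusted p = 0.182 by limma) and 0.47, and its scaffold gene Ppp2r1a of 0.48 (SE 0.19 and adjusted p = 0.184 by limma) and 0.46. Of 23 genes of microtubule proteins and tubulins, 18 were positive over all libraries (median 0.33) and 16 after set adjustment (median 0.18), and none passed. Map7d2, a microtubule-associated protein gene, averaged 4265 ± 1316 in aged and 2585 ± 946 in young libraries, which differed by 0.74 on the log2 scale (SE 0.24 and adjusted p = 0.182 by limma, 0.38 after set adjustment). The tubulin gene Tuba1b had differences of 0.61 (SE 0.24 and adjusted p = 0.183 by limma) and 0.49. The dendritic relative of tau, Map2, chosen after its values were seen, had differences of -0.10 and -0.32.

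**Figure D4:**
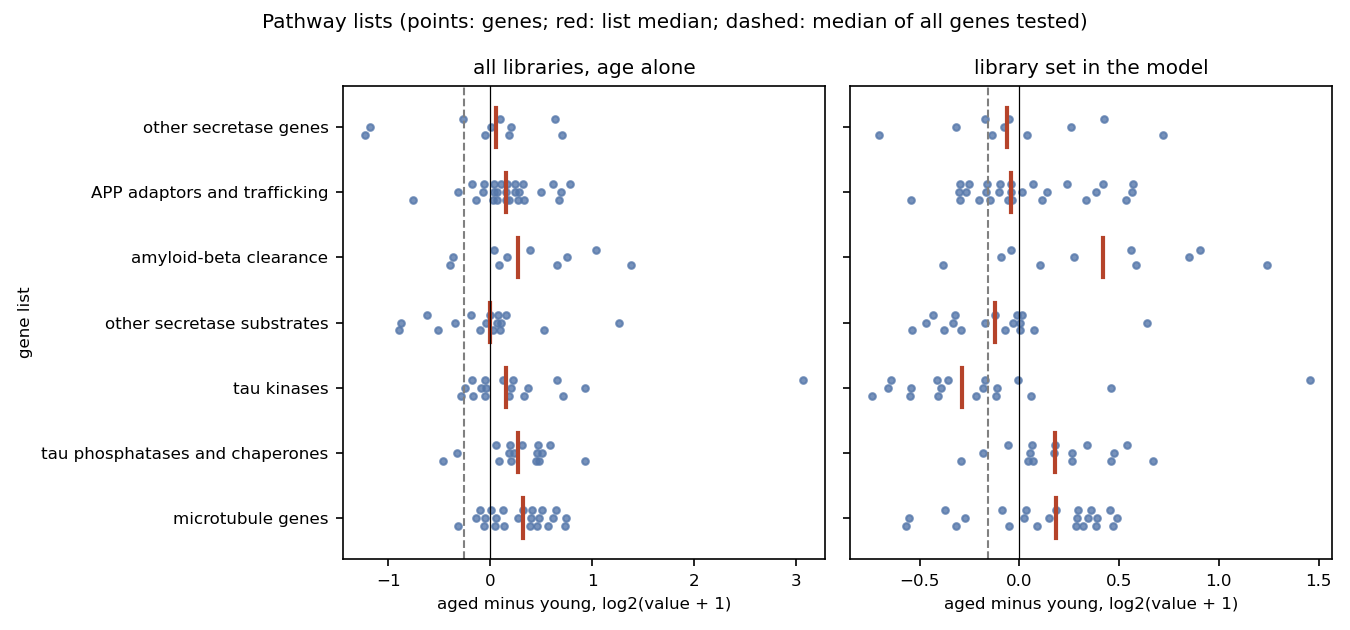
Aged minus young difference on the log2(value + 1) scale (horizontal axes) of the genes of 7 pathway lists (points), over all libraries on the left and set-adjusted on the right, with red bars for list medians and a dashed line for the median of all genes tested. The tau kinase median lies at 0.16 on the left and at -0.29 on the right, and the amyloid-beta clearance median is positive in both panels.

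The genes whose values followed App and Mapt most closely were found from the mean of the Pearson correlations within each library set (7 libraries each, 13953 genes with a mean value of 100 or more). The points share libraries, scaling and the age groups, so these values describe likeness only. Among the genes closest to App were Psap, the precursor of the lysosomal saposins (mean correlation 0.95), and B3gnt1 (0.94). Aplp1 and Aplp2 stood at 0.87 and 0.81 by the same measure, Bace1 at 0.40, Apbb1 at 0.08 and Mapt at -0.56. Closest to Mapt were Srrm3, a neuronal splicing regulator, Kmt2a, a histone methyltransferase, and Grid2ip, each at 0.88.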

How the data were processed

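Per the labels' protocols, RNA extracted with TriZol went into SmartSeq libraries. The submitters' processing notes list STAR, kallisto, DESeq2 and mm10, with no version. The authors deposited normalized signal per gene for 14 libraries; values are not whole (21.2 to 31.7% of low values within 0.05 of whole steps, 10% by chance), so reads were not recovered, depth is unknown and no count model or counting interval was used. The row without a gene name (0.0430 to 0.221% of a library) was left out. The log2 fold change with its SE, a test score, p-value and adjusted p-value come from the authors' deposited table, per the file headers. The sources used here do not give its model terms. Over the 9 genes its median log2 value was 0.11, with 7 positive. In limma the median was 0.12 with 7 positive after set adjustment, and 0.24 with 9 positive for age alone. For Mapt the values were -0.45 in that table, -0.46 after set adjustment and 0.24 with age alone. Whether that table adjusts for the set was not tested. Scaling to the typical gene removes a change common to most genes.

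Differences were fitted with limma 3.58.1 (R 4.3.3; mean-variance trend) on log2(value + 1), genes at 1 or more in at least 7 libraries, age as the only term, Benjamini-Hochberg adjusted p under 0.05 over all 24554 genes. Further fits added the library set (Xist above 1000) and its interaction with age. The fit was tested on simulated data. The 9 genes, the lists, the sets and the alternatives were chosen with earlier results of these data known. Named from the lists were genes past the threshold or else the 2 with the smallest p, and Apoe and Cst3 among them; Sorl1, Ttbk1 and Map2 were chosen after their values were seen. A gene close to App in likeness is not reported here. Coordinates are from GENCODE M21 (mm10). Of the 9 genes, 7 matched a promoter entry. Apbb3 of the adaptor list was not used here.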

Additional observations from a re-analysis of the deposited data

Results flagged for a closer look

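Aplp1 drew attention 3 times among 36 groups of libraries examined for a library far from the others, a check that chance alone trips in about 1 of 20 groups. The aged library 7, at 29340, stood apart from the next highest aged library at 20582, and from the next highest aged Xist-positive library at 20199. The young library 18, at 16979, stood apart from the next highest young Xist-negative library at 10647. Without the aged library 7 the Aplp1 age difference was 0.76 (limma adjusted p = 0.291) over all libraries, and without the young library 18 it was 0.94 (limma adjusted p = 0.158).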

How the results depend on the processing

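No paired analysis was possible because the age groups share 1 title number. No age difference of the 9 genes passed in limma except with array weights and age alone (App 0.50, Aplp1 0.90, Bace1 0.45, Psen2 0.75 and Mapt 0.86, with 13048 genes called in all, against 10 with the set in the model) and for Aplp1 without the aged library 12. Those weights were 0.27 to 0.38 for the young Xist-positive and 0.30 to 0.42 for the aged Xist-negative libraries, and 0.56 to 3.09 for the others.

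App and Aplp1 kept a positive sign under every alternative run. The sign turned for Mapt with the set as a term (-0.46) and within the sets (-0.28 and -0.63), for Apbb1 with the set (-0.013) and in Xist-negative libraries (-0.097), for Psen2 in Xist-positive libraries (-0.0011), for Bace1 (-0.072), Ncstn (-0.12) and Adam10 (-0.088) in Xist-negative libraries, for Ncstn (-0.041) and Adam10 (-0.041) with equal upper quartiles, and for Aplp2 (-0.16), Ncstn (-0.10) and Adam10 (-0.068) with array weights. With the set in the model it turned for Apbb1 with equal totals (0.12), equal upper quartiles (0.0016) and array weights (0.033), and for Bace1 with array weights (-0.017). The cause was not tested. The set difference turned with equal totals for Aplp1 (-0.13) and Apbb1 (-0.011), was lost for Bace1 (0.22, and 0.39 with upper quartiles) and was gained for Ncstn (-0.55) and Adam10 (-0.58). With equal totals the median set difference of the 9 genes was -0.13, against 0.18 as deposited.

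Leaving out 1 library at a time gave age differences, with age alone and then with the set, of 0.51 to 0.66 and 0.50 to 0.67 for App, 0.76 to 0.94 and 0.71 to 0.84 for Aplp1, 0.10 to 0.38 and 0.44 to 0.68 for Aplp2, 0.14 to 0.32 and -0.043 to 0.058 for Bace1, 0.35 to 0.57 and 0.077 to 0.18 for Psen2, -0.11 to 0.099 and -0.091 to 0.19 for Ncstn, -0.074 to 0.081 and 0.0095 to 0.30 for Adam10, 0.051 to 0.22 and -0.11 to 0.13 for Apbb1, and 0.11 to 0.49 and -0.51 to -0.31 for Mapt. The count of genes called ran from 0 to 2381 with age alone (main 1; 115 without the young library 3, 18 without the young library 2) and from 0 to 3 with the set. Other counts with age alone were 52 with equal totals, 19 with upper quartiles, 8 with a pseudocount of 10, 16 at a mean of 100 or more, 0 without the trend, 2 with the set, 60 in Xist-positive and 5 in Xist-negative libraries. With the set they were 11 with a pseudocount of 10 and 1 without the filter or the trend. The set difference called 12776 genes, against 6914 at a mean of 100 or more, and the interaction 0, against 2 without the filter and 3 without the trend. Settings that combine the set term with another choice, and all for the set difference and the interaction, were added after the data were seen. The median of all genes with the set in the model was -0.16 as deposited and -0.037 with equal totals, a shift of all differences alike.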
